A study of Rattus norvegicus with 13 samples.

Results

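The mammalian heart carries its own mechanically gated ion channels, and 9 of their genes were examined in rat hearts that had been given a bacterial one. The genes were Piezo1, Piezo2, Trpv4, Trpv2, Trpc1, Trpc6, Tmem63a, Tmem63b and Tmem63c. They were chosen by name as stretch- or osmo-sensitive channel genes, with earlier results of these data known. All 9 are among the 23018 gene names listed in all 3 deposited count tables. Bulk RNA of rat heart was sequenced in 13 samples, each titled a biological replicate. The hearts called ST (sonogenetic) carried AAV2/9-cTnT-MscL-G22S-mCherry, an adeno-associated virus in which the cardiac troponin T promoter, active in cardiomyocytes, drives the G22S variant of MscL, the bacterial channel of large conductance, joined to a red fluorescent protein. The WT hearts had no treatment, so that virus, fluorescent protein and channel cannot be told apart in any comparison of ST with WT. Each genotype had 2 hearts at 2 months and 3 at 6 months, and at 8 months there were 3 hearts of ST and none of WT. The labels used here do not say what the months are counted from, how old the animals were, or whether ultrasound was applied before the hearts were taken.

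Mechanically gated channels open when the membrane is stretched or swells and let cations into the cell, which turns force into an electrical or calcium signal. PIEZO1 and PIEZO2 form large trimeric calcium-permeable channels that are opened by membrane tension. TRPV4 and TRPV2 answer to cell swelling, heat or stretch, TRPC1 and TRPC6 are receptor-operated cation channels with a debated role in stretch, and the TMEM63 proteins are the animal relatives of the plant hyperosmolality-gated OSCA channels. In the heart these genes are read in cardiomyocytes and also in fibroblasts, endothelium, smooth muscle and macrophages.

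Library totals were 4.70 to 11.3 M counts, and the 8-month libraries were the shallowest at 4.70 to 5.57 M. A level is given as CPM, a gene's count per M counts of its library, on which 3 counts correspond to 0.266 CPM in the deepest library and to 0.639 CPM in the shallowest. The transgene had 0 counts in all 5 WT libraries, 94 and 127 in the ST libraries of 2 months, 767 to 1667 at 6 months and 610 to 1003 at 8 months. The cardiomyocyte marker genes, of which 6 of 7 were listed at 2 months and all 7 later, summed to between 47050 and 89790 CPM in every group. In contrast, the 4 adipocyte markers were all at 0 at 2 months and summed to at most 0.634 CPM in any later library. Within the groups of 6 months, 1 library stood apart on each side. The chi-square per gene between replicates was 8.49 and 7.51 for WT replicate 1 against 2.13 for the other pair, and 6.89 and 8.67 for ST replicate 2 against 1.93. ST replicate 2 also had the lowest transgene count (767) of its group. Without either library the 5 channel genes called between ST and WT hearts of 6 months were the same. Without ST replicate 2 the 6 called at 8 against 6 months were also the same, and without WT replicate 1 the call of Piezo2 at 8 months against WT was lost. Because these are bulk samples, fewer cells of a type and less RNA per cell cannot be told apart for any of the genes described. Trpc6, a diacylglycerol-activated channel, had only 1 to 6 counts in any library and 53 in all 13, and was tested in no comparison. Of the other 8 members all were tested at 2 months and in both comparisons of the 8-month hearts, and 7 were tested at 6 months, where Piezo2 was left out by the filter on low counts. Gene lengths were not used here, so no level of a gene is set against that of another.

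**Figure D1:**
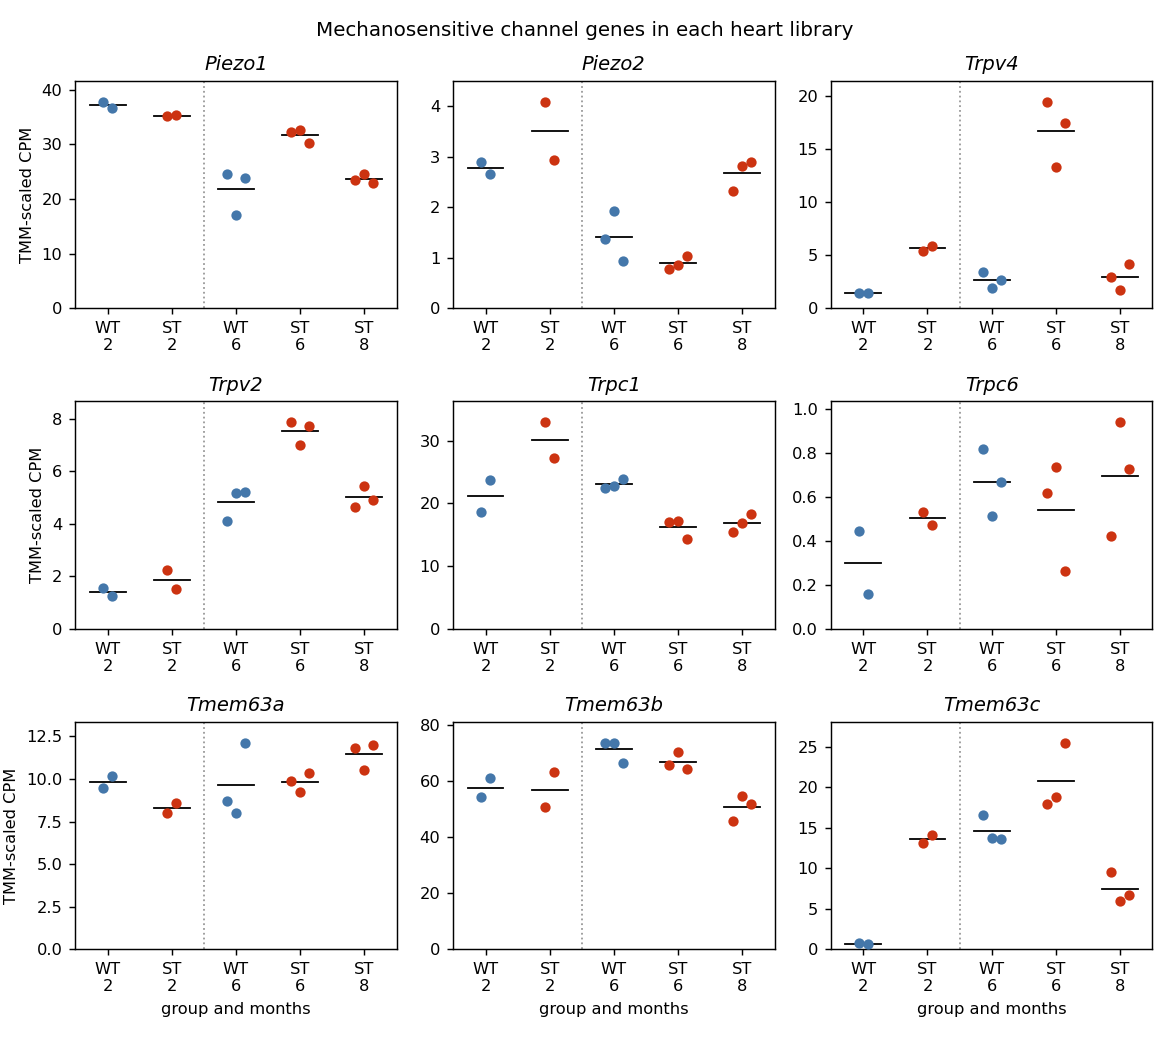
Level of each of the 9 channel genes in CPM (vertical axes, each starting at 0) in every library, by group (horizontal axis), 1 point per library; the 2-month libraries were scaled apart from those of 6 and 8 months. Trpv4 was between 13.3 and 19.4 CPM in ST hearts of 6 months and at most 5.88 CPM in every other library, and Tmem63c was below 1 CPM in both WT hearts of 2 months alone.

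At 2 months, 2 of the 8 tested channel genes differed between ST and WT hearts, and both were higher in ST: Tmem63c and Trpv4. By the same rule (edgeR's quasi-likelihood test with a Benjamini-Hochberg adjusted p under 0.05 over all genes tested) 4.80% of 12121 genes were called, 2.70% higher and 2.10% lower. The median log2 fold change was 0.38 over the 8 channel genes and -0.00044 over all genes tested. Tmem63c, the member of the TMEM63 family that is known chiefly from kidney and brain, stood at 0.780 and 0.627 CPM in the WT hearts (7 and 4 counts) and at 13.1 and 14.1 CPM in the ST hearts (147 and 120 counts). Both ST hearts were far above both WT hearts. The log2 fold change was 4.22 (SE 0.323, adjusted p = 6.33e-07), which is 18.6-fold and the 4th highest among the 12121 genes tested. Trpv4, the swelling- and heat-sensitive calcium channel, stood at 1.45 and 1.41 CPM in WT hearts (13 and 9 counts) and at 5.42 and 5.88 CPM in ST hearts (61 and 50 counts). Here too the groups did not overlap. The log2 fold change was 1.97 (SE 0.344, adjusted p = 0.00241), a 3.91-fold difference. Both genes passed in each of the 12 alternative settings tried, with adjusted p-values of at most 3.42e-05 for Tmem63c and 0.0215 for Trpv4.

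Since these genes were called in both comparisons of ST with WT, the 250 bases upstream of their annotated start sites are shown, as RefSeq gives them for the rat assembly GRCr8. An entry was found for 6 of the 9 members, those of Piezo2, Trpv4, Trpv2, Trpc6, Tmem63a and Tmem63c. No entry was used for Piezo1, Trpc1 or Tmem63b. The Trpv4 window lies at chr12:47598938-47599187 on the plus strand and is 72.8% G and C. The Tmem63c window lies at chr6:112403643-112403892 on the plus strand and is 56.4% G and C. Both are printed 5′ to 3′, and capitals mark a match to a searched motif.
Trpv4: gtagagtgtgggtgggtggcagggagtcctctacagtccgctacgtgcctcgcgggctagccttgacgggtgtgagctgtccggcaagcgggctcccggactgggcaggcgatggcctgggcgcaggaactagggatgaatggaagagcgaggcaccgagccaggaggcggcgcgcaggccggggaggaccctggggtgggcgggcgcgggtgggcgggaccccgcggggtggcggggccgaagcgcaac
Tmem63c: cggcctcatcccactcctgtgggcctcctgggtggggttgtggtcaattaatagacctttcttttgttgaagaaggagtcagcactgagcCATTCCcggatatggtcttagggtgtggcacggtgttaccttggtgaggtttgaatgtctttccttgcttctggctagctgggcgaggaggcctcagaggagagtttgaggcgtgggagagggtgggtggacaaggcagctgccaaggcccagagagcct
The motifs searched on both strands were AP-1 with TGANTCA, then CRE (TGACGTCA), NBRE (AAAGGTCA), the heat shock element (GAANNTTC), EGR1 (GCGNGGGCG), the E-box with CACGTG, the muscle element M-CAT with CATTCC, and the CArG box by its usual definition. The Trpv4 window held 0 matches to these motifs. The Tmem63c window held 1 M-CAT match, which starts 160 bases before the start site, and 12.1% of 33465 rat promoter windows of the same length hold one. Among the other 4 windows there was 1 match, a CArG box in Tmem63a that starts 77 bases before the start site, and 1.5% of all windows hold a CArG box. No match overlapped another. Among all windows, AP-1 was in 6.34%, CRE in 1.59%, NBRE in 1.24%, the heat shock element in 7.23%, EGR1 in 4.29% and the E-box in 5.59%.

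The remaining 6 tested members were not called at 2 months. Trpc1, a subunit of store- and receptor-operated channels, stood at 18.6 and 23.7 CPM in WT and at 33.0 and 27.2 CPM in ST hearts. Its groups did not overlap, and its log2 fold change of 0.52 (SE 0.169, 95% interval 0.17 to 0.88) had an adjusted p of 0.0935. It passed in 3 of 12 alternative settings, namely without ST replicate 2 (adjusted p = 0.00626), with no filter on low counts (0.0295) and in a single fit over all groups (0.0192), and over all 12 its adjusted p ranged up to 0.744. Piezo1 stood at 37.8 and 36.7 CPM in WT and at 35.2 and 35.3 CPM in ST hearts, a log2 difference of -0.08 (95% interval -0.37 to 0.21). Its groups did not overlap either, which held for 48.9% of all genes tested at this sample size. Tmem63b, a widely expressed osmosensitive channel, overlapped at 54.4 and 61.1 CPM in WT and 50.9 and 63.2 CPM in ST hearts, with a log2 difference of -0.02 (95% interval -0.32 to 0.28). Tmem63a had 9.47 and 10.2 CPM in WT against 8.00 and 8.59 CPM in ST hearts. Trpv2 had 1.56 and 1.25 CPM in WT against 2.22 and 1.53 CPM in ST hearts, and Piezo2, best known from touch neurons, 2.90 and 2.66 against 4.09 and 2.94 CPM. The log2 differences of these last genes were -0.24 (Tmem63a), 0.41 (Trpv2) and 0.35 (Piezo2), with adjusted p-values between 0.586 and 0.664. The number of genes called at this time depended on single libraries: it was 582 with all 4, 271 without WT replicate 1 and 2013 without ST replicate 2.

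Markers of the heart's outer lining differed at 2 months. The 5 of 6 mesothelial markers listed summed to 10.5 and 10.7 CPM in WT and 18.0 and 21.7 CPM in ST hearts, 2 of them (Msln and Upk3b) were called higher and Upk1b was at 0 in both WT hearts. Their part in the results on Tmem63c and Trpv4 was not tested. Endothelial markers were called lower for 1 of 8 (Kdr), and 0 markers of cardiomyocytes, fibroblasts, smooth muscle and pericytes, or macrophages were called.

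At 6 months, 5 of the 7 tested channel genes differed between ST and WT hearts. Trpv4, Trpv2, Piezo1 and Tmem63c were higher in ST hearts and Trpc1 was lower. At this time 40.0% of 13253 genes were called, 19.9% higher and 20.1% lower, so that the count for the channel genes has to be read against a broad change. Their median log2 fold change was 0.51, against -0.0016 over all genes tested. Trpv4 stood at 3.41, 1.93 and 2.67 CPM in WT hearts (25, 15 and 20 counts) and at 19.4, 13.3 and 17.4 CPM in ST hearts (126, 108 and 133 counts). Every ST heart was well above every WT heart. The log2 fold change was 2.64 (SE 0.217, adjusted p = 2.62e-06), a 6.22-fold difference and the 83rd highest of 13253. Trpv2, a channel abundant in macrophages and found at the intercalated disc of cardiomyocytes, stood at 4.10, 5.15 and 5.20 CPM in WT and at 7.86, 7.001 and 7.72 CPM in ST hearts. Its groups did not overlap, and its log2 fold change was 0.64 (SE 0.175, adjusted p = 0.0123; 0.0867 by DESeq2, and 0.00991 to 0.0867 over 14 alternatives).

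Piezo1, the general tension sensor of endothelium and other cells, stood at 24.6, 17.1 and 23.8 CPM in WT and at 32.2, 32.7 and 30.2 CPM in ST hearts of 6 months. The WT hearts were spread more widely and all lay below the ST hearts. The log2 fold change was 0.55 (SE 0.124, adjusted p = 0.00455), and it passed in all 14 alternatives. Tmem63c stood at 16.5, 13.8 and 13.6 CPM in WT and at 17.9, 18.8 and 25.5 CPM in ST hearts. The groups were separate, but the lowest ST heart was near the highest WT heart. Its log2 fold change of 0.51 (SE 0.148, adjusted p = 0.0168) did not pass without WT replicate 2 (adjusted p = 0.0648), without WT replicate 3 (0.0671), without ST replicate 3 (0.0778) or with scaling by library size only (0.0513). Over 14 alternatives its adjusted p ranged from 0.00285 to 0.0778. Trpc1 stood at 22.4, 22.8 and 23.9 CPM in WT and at 17.1, 17.2 and 14.4 CPM in ST hearts. All ST hearts were lower, with a log2 fold change of -0.50 (SE 0.108, adjusted p = 0.00316), which passed in all 14 alternatives.

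The other TMEM63 genes were not called at 6 months. Tmem63a stood at 8.74, 7.98 and 12.1 CPM in WT and 9.87, 9.21 and 10.3 CPM in ST hearts, so that the groups overlapped (log2 difference 0.03, 95% interval -0.34 to 0.40). Tmem63b stood at 73.9, 73.8 and 66.7 CPM in WT and 65.8, 70.5 and 64.5 CPM in ST hearts, again with overlap (log2 difference -0.09, 95% interval -0.25 to 0.07). Piezo2, not tested, had 10, 15 and 7 counts in WT hearts and 5, 7 and 8 in ST hearts, that is 1.37, 1.93 and 0.934 CPM against 0.771, 0.860 and 1.05 CPM. At these counts the gene did not meet the filter on low counts (minimum count 10). All 5 called genes had groups that did not overlap, as did 51.7% of all genes tested.

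Some marker genes of cell types moved as well at 6 months. Of 9 smooth muscle and pericyte markers 6 were called higher and 0 lower, with a summed level of 307 to 392 CPM in WT and 414 to 590 CPM in ST hearts. Fibroblast markers were called higher for 3 and lower for 3 of 7 (2598 to 2819 against 2875 to 3301 CPM in sum), and cardiomyocyte markers higher for 2 and lower for 1 of 7 (83340 to 89100 against 72990 to 79140 CPM in sum). Endothelial markers were called higher for 3 and lower for 1 of 8 and macrophage markers higher for 2 and lower for 1 of 9, and the summed levels of both lists overlapped between the groups. All 3 tested mesothelial markers were called, 1 higher (Wt1, 0.89) and 2 lower (Msln, -3.19, and Upk3b, -2.78), whereas Msln and Upk3b were higher at 2 months. Their summed levels overlapped (23.3 to 36.3 CPM in WT and 29.4 to 32.8 CPM in ST hearts), and for the difference between the times 0 of 5 tested were called higher and 4 lower. Schwann and neural markers were called lower for 1 of 4 tested, with overlapping summed levels of 18.3 to 22.02 and 16.3 to 21.1 CPM. None of these 7 lists had a marker at 0 throughout a group of 6 months. The part of these markers in the results on the channel genes was not tested.

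**Figure D2:**
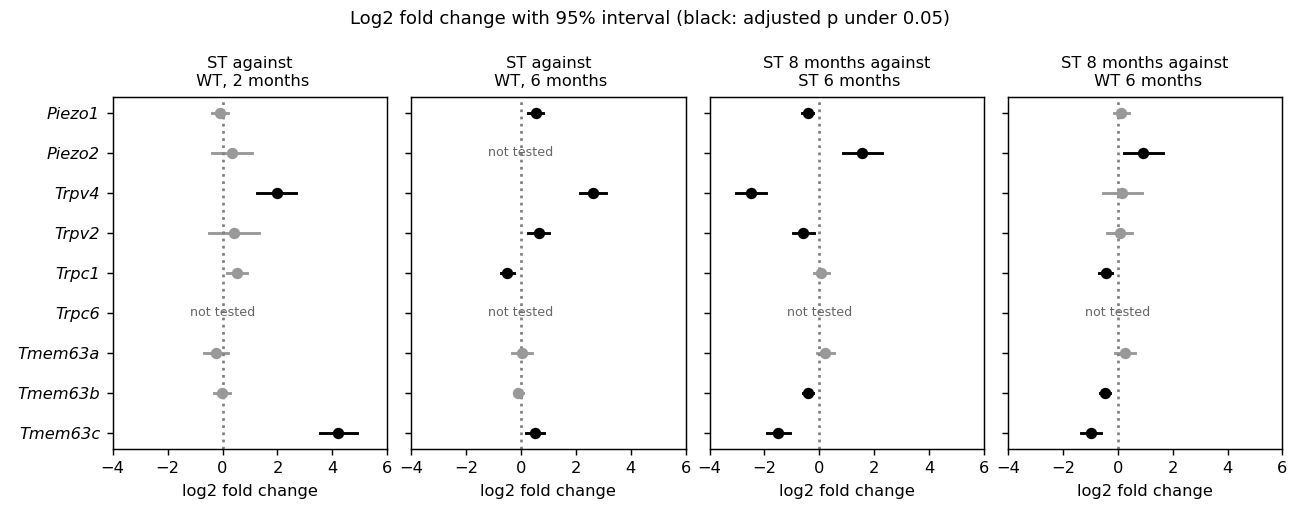
Log2 fold change (horizontal axes) of each tested channel gene (vertical axis) in the 4 comparisons of groups, with bars for the 95% interval; black marks an adjusted p under 0.05 in edgeR's quasi-likelihood test. Tmem63c at 2 months (4.22) and Trpv4 at 6 months (2.64) lie farthest to the right, and Trpv4 in ST hearts of 8 against 6 months (-2.48) farthest to the left.

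Whether the difference between ST and WT hearts was the same at both times was tested directly, as the log2 effect at 6 months minus that at 2 months. It differed for 3 of 8 channel genes, against 22.2% of 12658 genes. For Tmem63c the effect was smaller at 6 months, by -3.72 (SE 0.371, adjusted p = 4.24e-06). In levels, ST hearts had 13.1 to 14.1 CPM at 2 months and 17.9 to 25.5 CPM at 6 months, whereas WT hearts had 0.627 to 0.780 CPM and 13.6 to 16.5 CPM. The tables of both times differ in the gene names they list and were scaled apart, so that time and table cannot be told apart for a level. For Trpc1 the effect changed by -1.04 (SE 0.194, adjusted p = 0.00131), from 0.52, not called, to -0.50. For Piezo1 it changed by 0.61 (SE 0.181, adjusted p = 0.0225), from -0.08 to 0.55, and this no longer passed without WT replicate 1 of 2 months (adjusted p = 0.0928) or ST replicate 1 of 2 months (0.0544). The adjusted p of Piezo1 ranged from 0.00782 to 0.0928 over 18 alternatives. The number of genes called over the whole table was 2811, and 1558 without WT replicate 1 of 2 months. For Trpv4, higher at both times, the effects differed by 0.66 (SE 0.434, adjusted p = 0.297, 95% interval -0.26 to 1.58). That interval spans no change as well as a clearly larger effect at 6 months. The changes of Piezo2 (-1.003), Trpv2 (0.21), Tmem63a (0.26) and Tmem63b (-0.08) were not called.

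**Figure D3:**
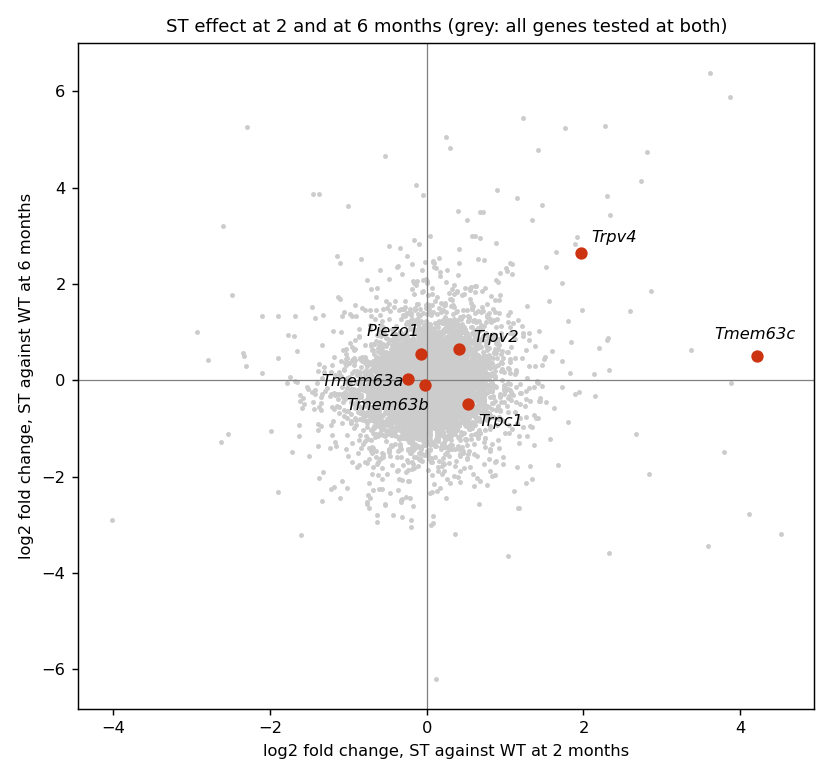
Log2 fold change of ST against WT hearts at 2 months (horizontal axis) and at 6 months (vertical axis) for all genes tested at both times (grey points) and for the 7 channel genes among them (labelled points). Trpv4 was high on both axes (1.97 and 2.64), Tmem63c lay far out on the horizontal axis (4.22) and at 0.51 on the vertical, and Trpc1 lay to the right of and below 0 (0.52 and -0.50).

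At 8 months, ST hearts differed from ST hearts of 6 months in 6 of the 8 tested channel genes: Trpv4, Tmem63c, Piezo1, Trpv2 and Tmem63b were lower and Piezo2 was higher. In this comparison 39.6% of 12931 genes were called, 19.1% higher and 20.5% lower. The median log2 fold change was -0.41 over the channel genes and 0.02 over all genes tested. Against WT hearts of 6 months, 4 of 8 channel genes were called, Piezo2 higher and Trpc1, Tmem63b and Tmem63c lower, beside 33.9% of 13095 genes (17.8% higher and 16.1% lower). The median was 0.10 over the channel genes and -0.0081 over all. In both comparisons Piezo2 met the filter on low counts only by its counts at 8 months, where it was higher. These comparisons share libraries with each other and with that of 6 months, and without WT hearts of 8 months the effect of time cannot be told apart from that of the virus or of the table.

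Trpv4 stood at 2.96, 1.69 and 4.17 CPM in ST hearts of 8 months (14, 9 and 23 counts). All 3 were below the 13.3 to 19.4 CPM of the 6-month ST hearts and overlapped the 1.93 to 3.41 CPM of the WT hearts of 6 months. The log2 fold change was -2.48 (SE 0.249, adjusted p = 7.13e-06) against ST hearts of 6 months, and 0.16 (95% interval -0.54 to 0.87) against WT. Tmem63c stood at 9.51, 6.02 and 6.71 CPM. These hearts were the lowest of the 9 of the later times, below ST (17.9 to 25.5 CPM) and WT (13.6 to 16.5 CPM) of 6 months. The log2 fold changes were -1.50 (SE 0.192, adjusted p = 5.67e-05) and -0.98 (SE 0.17, adjusted p = 0.000338).

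Piezo1 stood at 23.5, 24.6 and 22.9 CPM at 8 months. Its 3 hearts lay below the ST hearts of 6 months (30.2 to 32.7 CPM), with a log2 fold change of -0.42 (SE 0.0934, adjusted p = 0.00319), and overlapped the WT hearts (17.1 to 24.6 CPM). Against WT the difference was 0.13 (95% interval -0.14 to 0.41). Trpv2 stood at 4.65, 5.45 and 4.90 CPM, below ST hearts of 6 months by a log2 fold change of -0.58 (SE 0.182, adjusted p = 0.0221) and overlapping WT (0.07, 95% interval -0.39 to 0.52). The call against ST hearts of 6 months did not pass by DESeq2 (adjusted p = 0.171) or without ST replicate 1 (0.0554) or 3 (0.057) of 6 months or ST replicate 1 (0.064) or 3 (0.062) of 8 months. Over 14 alternatives its adjusted p ranged from 0.0206 to 0.171.

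Piezo2 was the only channel gene called higher at 8 months, at 2.33, 2.82 and 2.90 CPM (11, 15 and 16 counts). The ST hearts of 6 months had 0.771 to 1.05 CPM (5 to 8 counts) and the WT hearts 0.934 to 1.93 CPM (7 to 15 counts). Neither group overlapped the 8-month hearts. The gene met the filter on low counts (minimum count 10) in these comparisons only by its counts at 8 months. Among genes this low, only those high in a group enter such a test, and both calls carry that selection. The log2 fold change was 1.56 (SE 0.331, adjusted p = 0.00247) against ST hearts of 6 months, which passed in all 14 alternatives. Against WT it was 0.93 (SE 0.339, adjusted p = 0.0432), and this passed in 6 of 14 alternatives, with adjusted p-values from 0.0281 to 0.241. The call was lost without WT replicate 1 (0.0908) or 3 (0.162), without ST replicate 1 (0.0597), 2 (0.119) or 3 (0.133) of 8 months, with the replicate number as a block (0.0554), with library size only (0.0557) and by DESeq2 (0.241).

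Tmem63b stood at 45.9, 54.7 and 51.9 CPM at 8 months, below all 6 hearts of 6 months (64.5 to 73.9 CPM). Its log2 fold change was -0.40 (SE 0.0838, adjusted p = 0.00241) against ST and -0.48 (SE 0.0848, adjusted p = 0.000422) against WT hearts of 6 months, and both passed in all 14 alternatives. Trpc1 stood at 15.4, 16.9 and 18.3 CPM, which overlapped the ST hearts of 6 months (14.4 to 17.2 CPM) with a difference of 0.06 (95% interval -0.21 to 0.33). Against WT hearts (22.4 to 23.9 CPM) it was lower by a log2 fold change of -0.43 (SE 0.112, adjusted p = 0.00743; 0.069 by DESeq2, and 0.0027 to 0.069 over 14 alternatives). Tmem63a stood at 11.8, 10.5 and 12.0 CPM and was not called in either comparison (0.22 against ST and 0.26 against WT hearts, adjusted p = 0.233 and 0.256). Without WT replicate 3 the difference from WT became 0.47 with an adjusted p of 0.0457, the lowest of its 14 alternatives, which reached up to 0.598. Groups that do not overlap made up 51.0% of all genes in the comparison with ST hearts and 46.7% in that with WT hearts.

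Macrophage markers were called lower in ST hearts of 8 against 6 months for 5 of 9 and higher for 0, with summed levels of 110 to 124 against 143 to 197 CPM. Endothelial markers were called higher for 3 and lower for 1 of 8, with summed levels of 1190 to 1248 against 984 to 1092 CPM. Fibroblast markers were called higher for 3 and lower for 3 of 7 (2289 to 2669 against 2875 to 3301 CPM), and smooth muscle and pericyte markers lower for 1 of 9. Cardiomyocyte markers were called higher for 4 and lower for 2 of 7, with summed levels of 86070 to 89790 against 72990 to 79140 CPM. Of mesothelial markers 0 of 1 tested was called, and of Schwann and neural markers 1 of 4 was higher. Against WT hearts of 6 months, endothelial markers were called higher for 6 of 8 and lower for 0 (1190 to 1248 against 832 to 1036 CPM), and smooth muscle and pericyte markers higher for 4 and lower for 1 of 8 tested (408 to 695 against 307 to 392 CPM). Macrophage markers were lower for 4 of 9 and higher for 0 (110 to 124 against 144 to 187 CPM), and fibroblast markers higher for 1 and lower for 3 of 7 (2289 to 2669 against 2598 to 2819 CPM). Of 7 cardiomyocyte markers 4 were called higher and 2 lower (86070 to 89790 against 83340 to 89100 CPM), mesothelial markers higher for 1 and lower for 2 of 3 tested (21.1 to 29.2 against 23.3 to 36.3 CPM), and 0 of 2 tested Schwann and neural markers were called. None of these markers was at 0 throughout a group of 6 or 8 months. Their part in the results on Trpv2, Piezo1 and the other channel genes was not tested.

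Of the genes next to the called channel genes, that beside Trpv4 was called in the same direction as Trpv4 in 3 comparisons, and those beside the others varied. In RefSeq gene order Trpv4 lies between Gltp and Fam222a. Fam222a is on the opposite strand and runs towards Trpv4, and the annotated spans do not overlap. Fam222a stood at 0.334 and 1.25 CPM in WT and 3.20 and 4.35 CPM in ST hearts of 2 months. At 6 months it stood at 2.05, 1.29 and 1.20 CPM in WT and 18.7, 13.4 and 17.7 CPM in ST hearts, and at 8 months it was at 1.06, 0.188 and 1.45 CPM. Its ST hearts were above WT at both times, and its 8-month values overlapped those of WT hearts of 6 months. The log2 fold changes were 2.34 (SE 0.499, adjusted p = 0.0113) at 2 months, 3.44 (SE 0.229, adjusted p = 4.33e-07) at 6 months and -4.17 (SE 0.322, adjusted p = 6.57e-07) in ST hearts of 8 against 6 months. Gltp, on the other side, was not called in any comparison (-0.15 at 6 months and 0.17 at 8 against 6 months). The sources used here do not say whether the counting used the strand, so that reads of opposite strands near the ends of these genes cannot be told apart. The neighbours of Tmem63c, Zdhhc22 and Ngb, were too low to be tested. PCOLCE2, next to Trpc1, was called lower at 6 months (-0.50, SE 0.143, adjusted p = 0.0156), as Trpc1 was, and at 8 months against WT (-1.12, SE 0.149, adjusted p = 2.89e-05). It was lower at 8 against 6 months too (-0.63, SE 0.187, adjusted p = 0.018), where Trpc1 was not called. Rnf166, next to Piezo1, went the opposite way, lower at 6 months (-0.47, SE 0.111) and higher at 8 against 6 months (0.44, SE 0.116). So did Ubb, next to Trpv2 (-0.25, SE 0.0741, and 0.64, SE 0.0632), which was also higher at 8 months against WT (0.40, SE 0.0592). Vegfa, next to Tmem63b, was higher at 6 months (1.06, SE 0.0737), where Tmem63b was not called, lower at 8 against 6 months (-0.46, SE 0.0626) as Tmem63b was, and higher against WT (0.61, SE 0.0704), where Tmem63b was lower. Napg, next to Piezo2, was called only for the difference between the times (-0.52, SE 0.164, adjusted p = 0.0302). Cdt1 beside Piezo1 and Lrrc75a beside Trpv2 were not called in any comparison, and Pls1 beside Trpc1 and Capn11 beside Tmem63b were not tested. The annotated spans of Piezo1, Trpv2, Tmem63a, Tmem63b and Trpc6 overlap another gene or pseudogene, among them Ctu2 with Piezo1 and Mrpl14 with Tmem63b, and reads of overlapping genes cannot be told apart either. Ctu2 was not called in any comparison, and Mrpl14 was higher where Tmem63b was lower (0.44, SE 0.0905, and 0.47, SE 0.112).

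The genes whose pattern over the 9 libraries of 6 and 8 months was nearest to that of a channel gene were found among 11889 genes, by the root mean square difference of centred log2 CPM. For Trpv4, whose own SD over these libraries was 1.3, they were Coq10b (0.337), a coenzyme Q binding protein of mitochondria, Srxn1 (0.338), which repairs peroxiredoxins, and Sphk1 (0.353), which makes sphingosine 1-phosphate. The 2-month hearts had no part in this choice. There Coq10b stood at 9.03 and 11.1 CPM in WT and 39.4 and 26.1 CPM in ST hearts, a log2 fold change of 1.72 (SE 0.209, adjusted p = 8.68e-05). Sphk1 did not follow (0.08, adjusted p = 0.958), and Srxn1, at 0.444 to 0.892 CPM in all 4 hearts, was not tested. For Tmem63c, with an SD of 0.681, the nearest genes were Slc10a6 (0.152), a carrier of sulfated steroids, Bhlhe40 (0.187), a transcriptional repressor tied to the circadian clock, and Eya2 (0.212), a transcriptional coactivator. At 2 months 0 of these 3 were called, with log2 fold changes of 0.80 for Slc10a6 (adjusted p = 0.0762), 0.08 for Bhlhe40 and 0.46 for Eya2. The nearest to Trpv2 were Slk (0.0837), Bysl (0.0907) and Ipo7 (0.0946), and to Trpc1 they were Cnst (0.0633), Thbs2 (0.0736) and Mgat4b (0.0768). The nearest to Piezo2 were Auts2 (0.191), Maml2 (0.222) and Oas1b (0.233), to Tmem63b Prepl (0.0509), Rbm10 (0.0561) and Kif13a (0.0566), and to Piezo1 Pofut2 (0.0948) and Arf4 (0.105) beside a gene known only as an open reading frame. Each of these values is a likeness over libraries that share their groups and carries no test.

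**Figure D4:**
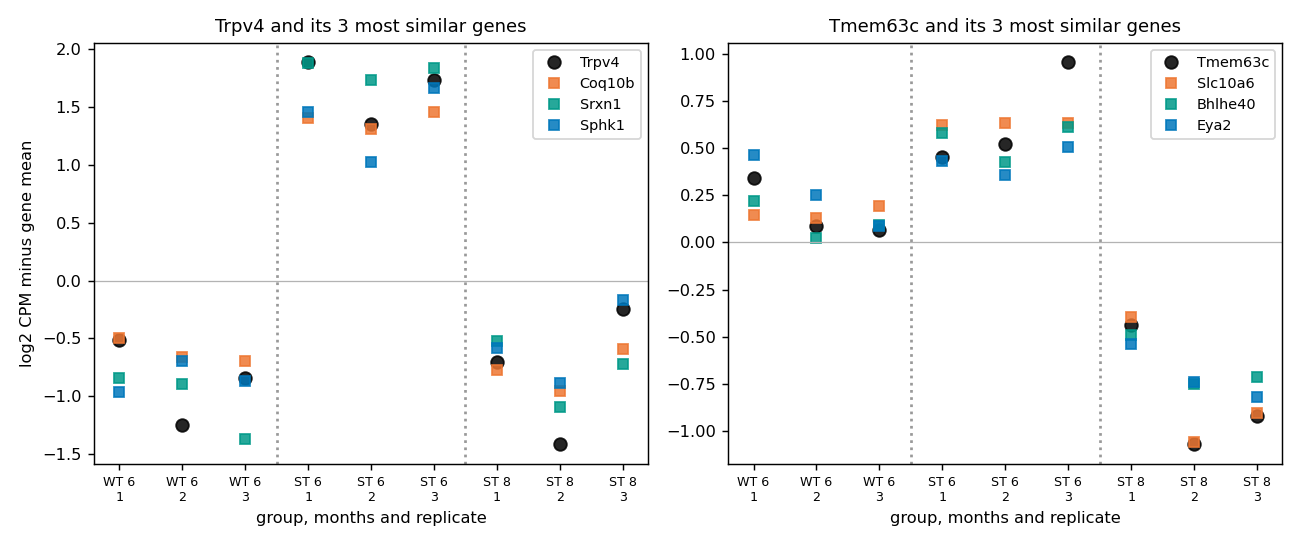
Log2 CPM centred on each gene's mean (vertical axes) in the 9 libraries of 6 and 8 months (horizontal axes) for Trpv4 and Tmem63c, each with the 3 genes nearest to it. The Trpv4 panel is high in the 3 ST hearts of 6 months and level between WT of 6 months and ST of 8 months, while the Tmem63c panel is lowest in the 3 ST hearts of 8 months.

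Other genes of the same pathways were followed by lists. Over all genes tested, 4.80% were called at 2 months and 40.0% at 6 months. The shares were 39.6% in ST hearts of 8 against 6 months and 33.9% at 8 months against WT. The counts of each list have to be read against these shares. Of 24 other TRP channel genes 6 were tested at 2 months, where 1 was called higher: Trpm7, a cation channel with a kinase domain, at 80.5 and 87.1 CPM in WT and 136 and 108 CPM in ST hearts (0.54, SE 0.139, adjusted p = 0.0321). At 6 months 0 of 7 were higher and 2 were lower. These were Trpm4, a calcium-activated channel (-0.64, SE 0.106), and Trpm3 (-1.86, SE 0.413), which had only 3 to 15 counts per library. In ST hearts of 8 against 6 months Trpm4 was higher (0.35, SE 0.121), and Pkd1, which encodes polycystin 1, was lower (-0.73, SE 0.0801). Against WT only Pkd1 of 7 was called, and it was lower (-0.64, SE 0.0696).

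Of 20 other stretch-gated or candidate channels 8 were tested throughout, and 0 were called at 2 months. At 6 months Kcnk2, which encodes the stretch-gated potassium channel TREK-1, was lower in ST hearts, at 10.8, 17.9 and 15.7 CPM against 24.0, 29.4 and 25.5 CPM in WT (-0.81, SE 0.157, adjusted p = 0.00171). It was at a like level in ST hearts of 8 months, at 14.0, 16.5 and 14.5 CPM (-0.80 against WT, SE 0.124, adjusted p = 0.000127). Asic1, an acid-sensing sodium channel gene, was also lower at 6 months (-0.98, SE 0.199), and Tmem120a was higher (0.55, SE 0.107). In ST hearts of 8 against 6 months 2 were higher and 2 lower.

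Of 10 tested channels linked to cell volume, 0 were called at 2 months, and 5 were higher and 2 lower at 6 months. Aqp1, the water channel of endothelium, stood at 464, 450 and 453 CPM in WT and at 807, 714 and 818 CPM in ST hearts of 6 months, and at 405, 429 and 480 CPM at 8 months. The 6-month ST hearts thus stood apart from both other groups, with log2 fold changes of 0.78 (SE 0.0689, adjusted p = 4.61e-06) against WT and -0.83 (SE 0.0718, adjusted p = 1.76e-06) for 8 against 6 months. Lrrc8a, the required subunit of the volume-regulated anion channel, was higher by 0.42 (SE 0.0664) at 6 months and lower by -0.43 (SE 0.0691) at 8 against 6 months. Ano1, a calcium-activated chloride channel gene, was lower at 6 months (-0.67, SE 0.16).

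Among 15 tested channel partners and caveolar genes, 1 was called at 2 months, Pacsin3, whose protein binds TRPV4 (-0.66, SE 0.165, adjusted p = 0.0277). At 6 months its levels went the other way, at 91.7, 95.9 and 105 CPM in WT and 120, 113 and 126 CPM in ST hearts. At 6 months 6 were higher and 2 lower. Those higher included Stom, a membrane scaffold that modulates channels (0.58, SE 0.104), the calcium store sensor gene Stim2 (0.55, SE 0.122) and Mdfic, whose protein is an auxiliary subunit of PIEZO channels (0.49, SE 0.124). The caveolar gene Cavin2 was lower (-0.40, SE 0.0733). In ST hearts of 8 against 6 months 5 were higher and 5 lower, with Cav1 at 0.75 (SE 0.0667) and Stom at -0.81 (SE 0.103), and against WT 7 were higher and 1 lower.

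Of 15 genes that answer to calcium or stretch, 3 were called higher and 4 lower at 2 months, with a median log2 fold change of -0.35. Nr4a3 (3.87, SE 0.197) and Nr4a1 (2.81, SE 0.223), nuclear receptors of the immediate early class, and Thbs1 (1.77, SE 0.201) were higher. Nppb, the gene of brain natriuretic peptide, was lower (-1.38, SE 0.151). At 6 months all 15 were called higher, with a median of 2.75. In ST hearts of 8 against 6 months 11 were lower and 0 higher (median -1.70), and against WT of 6 months 13 of 14 tested were higher and 1 lower (median 1.15).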

How the data were processed

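Bulk RNA of 13 rat heart samples was analysed from 3 deposited tables of expected counts per gene, which the values show to be unscaled between samples. No source used here names the aligner, the counting tool or its use of strand. The submitters' processing notes name the builds GRCm38 and mm10, which are of mouse, so no coordinates were taken from them. All 13 sample columns were used, and replicate libraries of a group differed by more than sampling noise (chi-square per gene 1.93 to 12.1).

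The deposited expected counts were rounded to whole counts. A comparison was fitted on the libraries of its groups, over names in all their tables, with filterByExpr (minimum count 10), TMM and the two-sided edgeR quasi-likelihood test, version 4.0.16 (R 4.3.3), with Benjamini-Hochberg adjustment over all genes tested and a threshold of 0.05. With 2 or 3 libraries a group, the p-values measure only the spread between these samples. The standard error (SE) was obtained as the size of the log2 fold change over the root of F, and 95% intervals use it. Both are unreliable near 0 counts. The procedure was also run on counts simulated from the spread fitted to these libraries. No library was made to stand apart there, so that run does not bear on the weight of single libraries. Levels in CPM are TMM-scaled over the 2-month libraries and, apart from these, over all of 6 and 8 months.

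The members and lists were chosen with earlier results of these data known. All 9 members are named, with at most 4 genes of a context list per comparison, those of smallest p past the threshold (of which the text gives a selection), the RefSeq neighbours of called members and the 3 genes most like each of them (prior count 2, mean log2 CPM of at least 1, locus identifiers passed over). Alternatives were RLE size factors, library size only, no filter, a filter of 1 CPM, DESeq2 1.42.0, limma-voom (limma 3.58.1), a replicate block, a single fit over all groups and leaving out each library. RefSeq's GRCr8 tables gave neighbours and promoters. Spatial data of the study were not used here. A result from one of the context lists is not reported here.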

Additional observations from a re-analysis of the deposited data

Results flagged for a closer look

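For 3 channel genes the difference between ST and WT hearts itself differed between 6 and 2 months, by an interaction term in edgeR over 10 libraries. The log2 effect at 6 months minus that at 2 months was -3.72 for Tmem63c, -1.04 for Trpc1 and 0.61 for Piezo1. Tmem63c was called higher in ST hearts at both times, Trpc1 was called at 6 months only (lower), and Piezo1 at 6 months only (higher). These differences rest on 2 libraries a group at 2 months, and that of Piezo1 did not pass without WT replicate 1 (adjusted p = 0.0928) or ST replicate 1 (0.0544) of that time, among 18 alternatives with adjusted p-values of 0.00782 to 0.0928.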

How the results depend on the processing

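The calls of Tmem63c and Trpv4 at 2 months, of Trpv4, Piezo1 and Trpc1 at 6 months, of Trpv4, Tmem63c, Piezo1, Piezo2 and Tmem63b in ST hearts of 8 against 6 months, of Tmem63b and Tmem63c against WT, and of Tmem63c and Trpc1 between the times passed in every alternative run. The number of genes called at 2 months (582) was 1019 without the filter, 345 by DESeq2, 1237 in the single fit over all groups and 271 to 2013 with a library left out. In ST hearts of 8 months against WT, DESeq2 called 2891 genes (4441 by edgeR), and 2 channel genes instead of 4. For the difference between the times, leaving out a library gave 1558 to 3197 genes (2811 with all). The cause was not tested.

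Same-numbered libraries deviated together weakly at most (correlations of 0.0039 to 0.178). Libraries of different numbers had correlations of -0.112 to 0.0668. Deviations were taken from the mean of each group and cancel out within it, so these correlations are tied to each other. At 2 months they were 0.0712 for the same number and -0.0712 for different numbers, equal in size by construction. Whether the numbers pair the libraries is therefore not settled. With the replicate block, 636 genes were called at 2 months, 5435 at 6 months, 5427 at 8 against 6 months, 4652 at 8 months against WT and 2941 for the difference between the times. It changed the call of Piezo2 at 8 months against WT (adjusted p = 0.0554) and of no other channel gene. With scaling by library size only the median of all genes was -0.116 (log2) at 6 months (-0.0016 with TMM), and the share of calls that were higher was then 31.8% (49.8% with TMM), 58.9% at 8 against 6 months (48.2%), 39.7% at 8 months against WT (52.4%) and 34.7% for the difference between the times (46.0%).

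The sign changed for values that were not called. At 2 months Tmem63b was 0.06 without WT replicate 2 and 0.13 without ST replicate 1 (-0.18 to 0.13 over the libraries left out). At 6 months Tmem63a was -0.084 with library size only, -0.038 and -0.086 without WT replicates 1 and 2, and -0.0095 without ST replicate 3 (-0.086 to 0.23). At 8 against 6 months Trpc1 was -0.028 without ST replicate 3 of 6 months and -0.0070 without that of 8 months (-0.028 to 0.11). Against WT, Trpv2 was -0.045 without WT replicate 1 and -0.0015 without ST replicate 2 (-0.045 to 0.13), Piezo1 -0.017 without WT replicate 2 (-0.017 to 0.22), and Trpv4 -0.027 without WT replicate 2 and -0.20 without ST replicate 3 (-0.20 to 0.45). Between the times, without ST replicate 2 of 2 months, Trpv2 was -0.0051 (-0.0051 to 0.54) and Tmem63b 0.072 (-0.23 to 0.072). Depth limits Trpc6 throughout and Piezo2 at 6 months.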

Other observations

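WT hearts differed in level between the tables of 2 and of 6 months for some genes described above, both of which had no treatment. Tmem63c stood at 0.703 ± 0.109 CPM (SD, n = 2) in WT hearts of 2 months and at 14.6 ± 1.63 CPM (SD, n = 3) in those of 6 months. Srxn1 stood at 0.783 and 0.892 CPM at 2 months and at 7.87 to 11.5 CPM at 6 months. Trpc2, by contrast, had 3 to 6 counts in each of the 4 libraries of 2 months and 0 in all 9 later ones. The tables list 25600 and 38600 names, so that the times differ in gene annotation as well, and these levels were not compared by a test.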
